A study of Mus musculus with 31 samples.

Results

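Cyp4a10, Cyp4a14, Acot1, Acot2, Acot3, Vnn1, Pdk4, Fabp1, Creb3l3 and Plin5 are genes that fasting induces in the liver through the nuclear receptor PPARα. All probes that the array design names for these 10 genes were taken, 14 of the 36059 probes that passed the signal filter. The array holds no other probe named for them, so each of the 10 genes, of 23968 measured in all, is covered. Signals were read in the livers of 31 male C57BL6/J mice, 1 array per mouse, after a fast of 24 h and 18 h of refeeding with chow and 20% glucose in the drinking water. No fasted liver was measured, so each value is a level in refed liver.

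The design has 2 mouse lines. In the ChREBPβ line, exon 1b of Mlxipl, the gene of the glucose-responsive transcription factor ChREBP, had been deleted by CRISPR with 2 guides, which removes the ChREBPβ isoform and leaves ChREBPα. This line gave 8 ChREBPβ-deficient mice, labelled ChREBPbeta_KO, and 8 WT littermates, labelled ChREBPbeta_WT. In the other line, Mlxipl-null mice lack both isoforms. It gave 7 total ChREBP-KO mice, labelled ChREBPtotal_KO, and 8 WT littermates, labelled ChREBPtotal_WT. The deletions are in every tissue, and the age of the mice is not given in the sources used here. Replicate 3 of the total ChREBP-KO mice was not analysed here.

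PPARα is a receptor for fatty acids and their derivatives. During fasting, fatty acids released from fat reach the liver, and PPARα with its partner RXR raises genes of fatty acid uptake, oxidation and ketone body production. After a meal, insulin and glucose turn the liver to fat synthesis, in which ChREBP takes part, and the fasting genes decline. A PPARα response element is typically a direct repeat of a hexamer with a spacer of a single base, called DR1.

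Each array held between 34131 and 38612 spots well above background. Mlxipl is read by 3 probes. A_55_P2119957 differed from WT littermates by -1.16 on the log2 scale in total ChREBP-KO mice and by -0.45 in ChREBPβ-deficient mice, with no overlap in either line. A_55_P2728555 differed by -0.59 (limma, adjusted p = 0.0031) and -0.46 (adjusted p = 0.91) with overlap in both, and A_55_P2045158 by -0.05 and -0.06, which did not pass the test. Whether these probes lie inside the deleted parts was not analysed here. All 8 hepatocyte markers were well above background on every array. One total ChREBP-KO mouse, replicate 6, had a summed signal of 12479 over 6 striated muscle markers, against a median of 448 in its group and at most 497 in the other 3 groups. Ckm and Mb, which define muscle, did not pass the filter. The filter asks for signal on several arrays, so a gene bright in a single mouse alone cannot pass it. Their failure to pass therefore does not show whether the liver of replicate 6 held muscle RNA. The arrays were scanned on 2 days, each with mice of all 4 groups.

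Cyp4a10 was higher in every total ChREBP-KO mouse than in any WT littermate, and Cyp4a14 was higher with some overlap. The CYP4A enzymes hydroxylate fatty acids at their omega end. Cyp4a10 is read by 3 probes, and its lead probe, the one with the highest mean signal over all arrays, is A_52_P257774. On this probe the log2 signal in total ChREBP-KO mice ran from 15.37 to 15.99 with a median of 15.94, and in their WT littermates from 14.02 to 15.19 with a median of 14.71. ChREBPβ-deficient mice ran from 13.70 to 14.64 with a median of 14.23, and their WT littermates from 13.73 to 14.64 with a median of 14.17. Every total ChREBP-KO mouse lay above every WT littermate, whereas the ChREBPβ groups overlapped over nearly their whole range. The difference in total ChREBP-KO mice was 1.17 ± 0.15 (SE) on the log2 scale, 2.26-fold (limma, adjusted p = 7.0e-07). The other Cyp4a10 probes, A_55_P2092030 and A_52_P6588, differed by 1.16 and 1.22, also without overlap. In ChREBPβ-deficient mice the 3 probes differed by 0.05, -0.03 and 0.02.

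The array annotation, on mouse build mm9, places the Cyp4a10 probes on chromosome 4 on the plus strand. A_52_P257774 lies at 115205268 to 115205756 and A_52_P6588 at 115197445 to 115197926, spans of 489 and 482 bases for probes of 60 bases. A_55_P2092030 lies at 115198463 to 115198522. All 3 probes list RefSeq transcripts of Cyp4a10 and of Cyp4a32, so the signal cannot be divided between these genes. A probe named for the neighbouring Cyp4a31, A_55_P2024033, at 115242872 to 115242931, also lists a Cyp4a10 transcript. The probe of Cyp4a14, A_66_P118338, lies on the same chromosome at 115168609 to 115168668 on the minus strand and lists Cyp4a14 alone. Which exon or UTR a probe lies in was not analysed here. Probes of the cluster are shown because they decide which of these similar genes is read. The Cyp4a10 lead probe A_52_P257774 is not among those shown. The Cyp4a31 values given below were read by another probe, A_55_P2050628, whose listed transcripts were not analysed here. Capitals mark the longest run of letters that the Cyp4a10 probe A_52_P6588 shares with the Cyp4a31 probe, 11 bases. Runs shared by other pairs are not marked, and the Cyp4a14 probe shares a longer run with the Cyp4a31 probe.
Cyp4a10 A_52_P6588: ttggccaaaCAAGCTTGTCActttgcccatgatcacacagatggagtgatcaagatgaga
Cyp4a10 A_55_P2092030: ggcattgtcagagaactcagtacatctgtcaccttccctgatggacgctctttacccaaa
Cyp4a31 A_55_P2024033: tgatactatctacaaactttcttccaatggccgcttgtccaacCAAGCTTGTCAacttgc
Cyp4a14 A_66_P118338: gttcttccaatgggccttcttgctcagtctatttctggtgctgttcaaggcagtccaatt

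For Cyp4a14, whose enzyme acts like that of Cyp4a10, total ChREBP-KO mice ran from 9.52 to 9.99 with a median of 9.68. Their WT littermates ran from 8.49 to 9.71 with a median of 9.02. The 2 groups overlapped, and the WT littermates were the more spread. The difference was 0.67 ± 0.12 on the log2 scale, 1.59-fold (limma, adjusted p = 0.00011). In ChREBPβ-deficient mice it was 0.12 ± 0.12, with a 95% interval from -0.12 to 0.36.

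**Figure D1:**
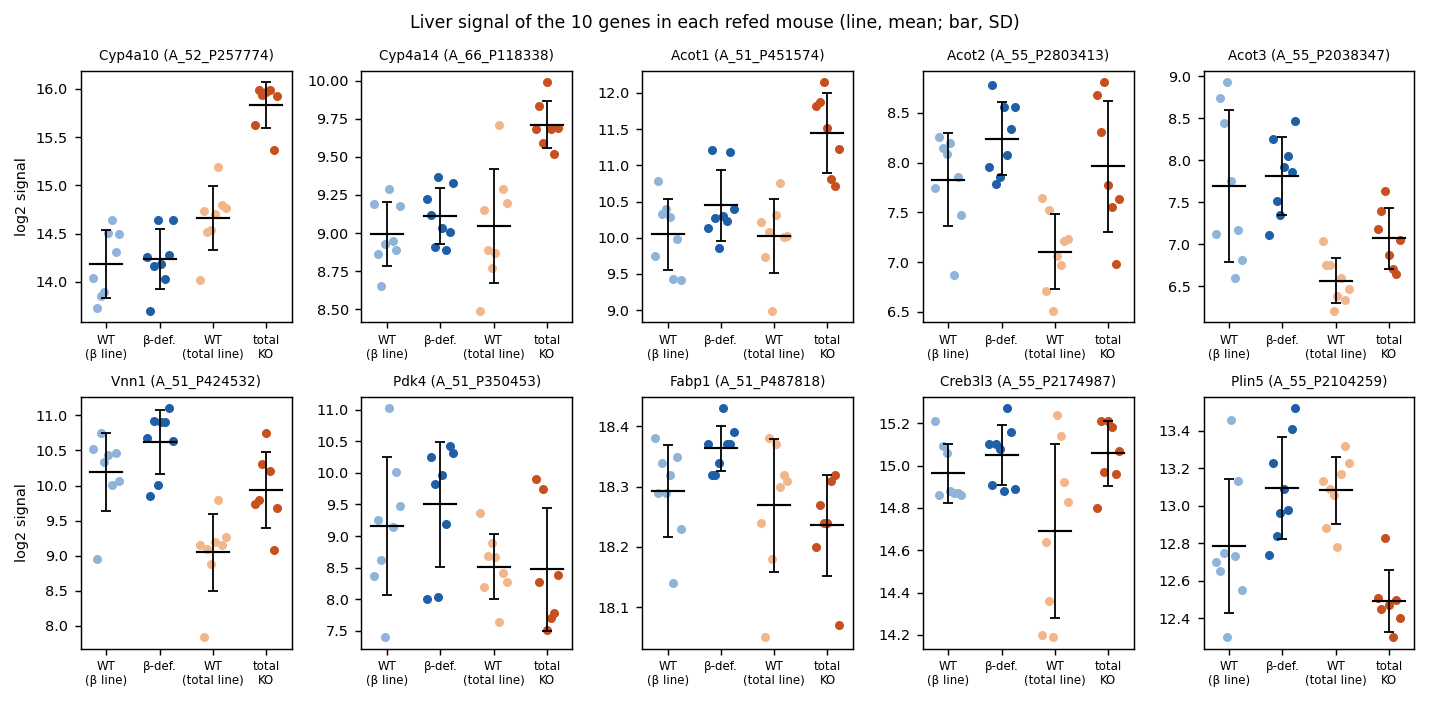
Log2 signal of the lead probe of each of the 10 genes (y axis) in each mouse (points) of the 4 groups (x axis), with the mean as a line and the SD as a bar, 7 or 8 mice per group. For Cyp4a10 the 7 total ChREBP-KO mice lie at 15.37 and above while all 8 WT littermates of their line lie at 15.19 and below.

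Acyl-CoA thioesterases release fatty acids from coenzyme A, Acot1 in the cytosol, Acot2 in mitochondria and Acot3 in peroxisomes. For Acot1, probe A_51_P451574 on chromosome 12 at 85358452 to 85358511, total ChREBP-KO mice ran from 10.71 to 12.15 with a median of 11.52, and WT littermates from 8.99 to 10.76 with a median of 10.05. Only the upper end of the WT group reached into the knockout range. Acot1 had the largest positive difference of the 14 probes, 1.43 ± 0.25 on the log2 scale, 2.69-fold (limma, adjusted p = 5.2e-05). For Acot2, probe A_55_P2803413 at 85334553 to 85334612, total ChREBP-KO mice ran from 6.98 to 8.81 with a median of 7.77 and WT littermates from 6.51 to 7.64 with a median of 7.13. The groups overlapped, and the difference was 0.86 ± 0.23, 1.81-fold (adjusted p = 0.0058).

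Acot3 did not pass the test in total ChREBP-KO mice. Its lead probe, A_55_P2038347 at 85400452 to 85400511, ran from 6.65 to 7.63 in total ChREBP-KO mice and from 6.21 to 7.04 in WT littermates, a difference of 0.50 with a 95% interval from -0.07 to 1.06. The second probe, A_52_P1156957 at 85401016 to 85401075, was well above background on 1 of 7 arrays of total ChREBP-KO mice and on 1 of 8 of their WT littermates. Its difference was 0.17. In ChREBPβ-deficient mice Acot1, Acot2 and the lead probe of Acot3 differed from WT littermates by 0.41, 0.41 and 0.12, none of which passed the test.

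Vnn1 encodes pantetheinase, which frees pantothenate and cysteamine from pantetheine. Its probe A_51_P424532, on chromosome 10 at 23624524 to 23624583, ran from 9.08 to 10.75 with a median of 9.79 in total ChREBP-KO mice and from 7.84 to 9.79 with a median of 9.15 in WT littermates. The groups overlapped, and the lowest WT value stood apart from the rest. The difference was 0.89 ± 0.26, 1.86-fold (limma, adjusted p = 0.0089). In ChREBPβ-deficient mice it was 0.43, with a 95% interval from -0.08 to 0.94.

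Creb3l3, which encodes the liver transcription factor CREBH, was higher in total ChREBP-KO mice by 0.37 ± 0.12, 1.29-fold (limma, adjusted p = 0.022). Its probe A_55_P2174987 lies on chromosome 10 at 80547080 to 80547139 on the minus strand. Total ChREBP-KO mice ran from 14.80 to 15.21 with a median of 15.07 and WT littermates from 14.19 to 15.24 with a median of 14.73. The groups overlapped, and the highest WT mouse was above every knockout mouse. Without WT littermate replicate 1, 3 or 4 it fell to 0.30, 0.32 and 0.30, and the adjusted p rose to 0.056, 0.053 and 0.059.

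Plin5 moved the other way. It encodes perilipin 5, a coat protein of lipid droplets that links them to mitochondria. On its lead probe A_55_P2104259, on chromosome 17 at 56251025 to 56251084 on the minus strand, total ChREBP-KO mice ran from 12.30 to 12.83 with a median of 12.47 and WT littermates from 12.78 to 13.32 with a median of 13.11. Only 1 knockout mouse, replicate 4, reached into the WT range. The difference was -0.59 ± 0.13 on the log2 scale (limma, adjusted p = 0.00074). The second probe, A_51_P262757 at 56251101 to 56251160, differed by -0.55 with no overlap. Without the mouse high in muscle markers, the differences were -0.56 and -0.53 and both still passed the test.

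Pdk4 and Fabp1 did not pass the test in either line. Pdk4, a kinase that shuts off pyruvate dehydrogenase and so spares glucose, is read by A_51_P350453 on chromosome 6 at 5433441 to 5433500 on the minus strand. It ran from 7.51 to 9.90 in total ChREBP-KO mice and from 7.64 to 9.36 in WT littermates, and from 7.40 to 11.02 in the WT littermates of the ChREBPβ line. This spread of several log2 units within a genotype gave the widest interval of the 14 probes, a difference of -0.04 with a 95% interval from -0.96 to 0.87. Without the mouse high in muscle markers it was 0.08. Fabp1, the liver fatty acid-binding protein, is read by A_51_P487818 on chromosome 6 at 71154906 to 71154965 and lay between 18.05 and 18.43 in all 31 mice. Its difference in total ChREBP-KO mice was -0.03 with a 95% interval from -0.13 to 0.06. Quantile normalization gives every array the same set of values, and the highest Fabp1 value was 18.38 in both WT groups. This can narrow the range and the interval of so bright a probe. Under 17 other settings, some without quantile normalization, the difference ran from -0.09 to 0.03 and none was called.

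Among the 14 probes, 8 were higher in total ChREBP-KO mice, from 6 genes, against 14.5% of all probes, and 2 were lower, both of Plin5, against 14.6% of all probes. The other 4, of Acot3, Pdk4 and Fabp1, did not pass the test. The groups did not overlap for 3 higher probes and 1 lower probe, against 3.26% and 4.14% of all probes. The median difference of the 14 probes was 0.58, and that of all probes 0.01. In bulk liver, fewer cells of a type and less RNA per cell cannot be told apart. Signals of other lists differed along with these genes. The summed signal of the 8 hepatocyte markers ran from 1704164 to 1772962 in total ChREBP-KO mice and from 1501704 to 1611485 in WT littermates, and 2 of the 8 were higher by the test. The sum of 6 adipocyte markers ran from 158679 to 204469 and from 78867 to 136917, with 1 of the 6 higher, while Adipoq did not pass the filter. The 6 differences ran from -0.30 to 0.79 with a median of -0.07, so the higher sum does not stand for the whole list. Of 14 exocrine pancreas markers 8 passed the filter, of which 4 were lower in total ChREBP-KO mice, with a median difference of -0.64, and their sum ran from 14972 to 36118 against 18319 to 37629. Cpa1, Cpb1 and Pnlip were among those that did not pass it. Their part in these results was not tested.

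In ChREBPβ-deficient mice, 0 of the 14 probes passed the test in limma, where 0% of all probes were higher and 0.00277% lower. An exact Mann-Whitney test called no probe of the array in this comparison, its lowest adjusted p being 0.477, and so adds nothing on the 14. None of the 14 separated the groups, which 0.00832% of all probes did upwards and 0.0139% downwards. An unadjusted p below the threshold was reached by 2, against 4.98% of all probes, both of Plin5, with differences of 0.31 and 0.30 and adjusted p = 0.99. Of the 14 differences 12 were positive, with a median of 0.12. The intervals leave room for moderate differences in several genes: the upper bounds for Acot1, Acot2 and Vnn1 were 0.90, 0.87 and 0.94, while that of the Cyp4a10 lead probe was 0.36.

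**Figure D2:**
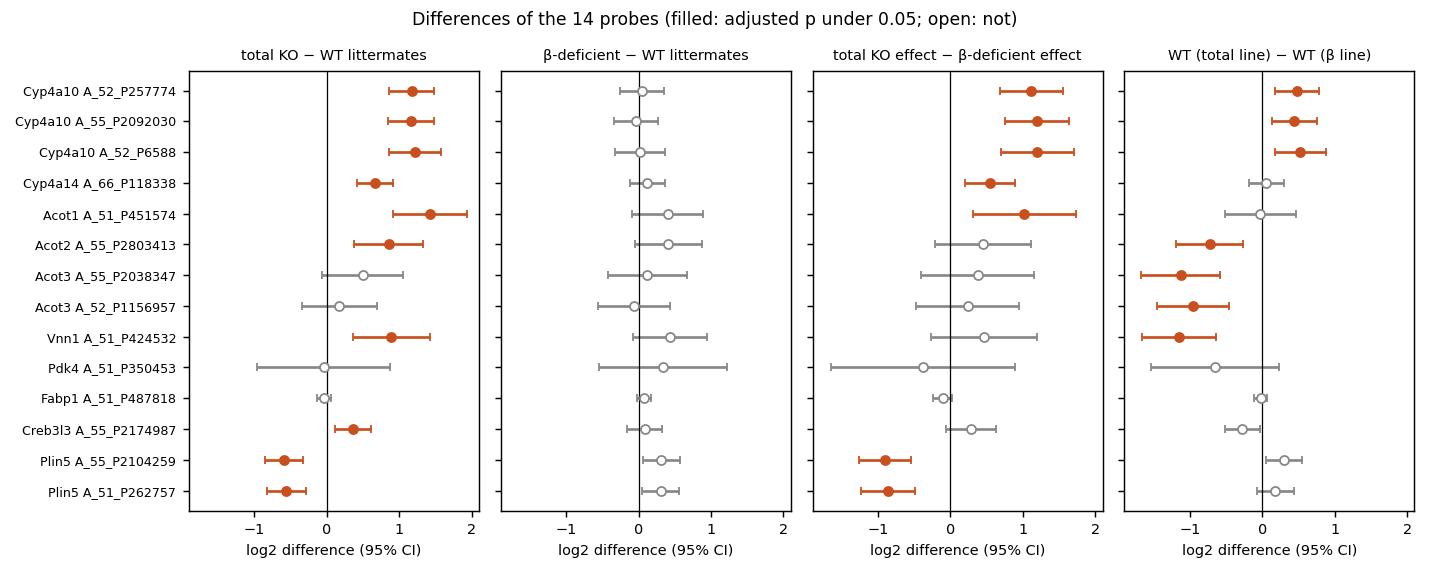
Log2 difference (x axis) with its 95% confidence interval for each of the 14 probes (rows) in 4 comparisons (panels). Filled points passed the adjusted threshold of 0.05, 10 of 14 for total ChREBP-KO mice and 0 of 14 for ChREBPβ-deficient mice.

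Whether the effects of the 2 deletions differed was tested as the total ChREBP-KO effect minus the ChREBPβ-deficient effect. It was positive past the threshold for 5 probes, against 7.02% of all probes, and negative for 2, against 8.08%. The Cyp4a10 probes gave 1.12, 1.19 and 1.202. Cyp4a14 gave 0.55 (limma, adjusted p = 0.028), and 0.50 (adjusted p = 0.051) without total ChREBP-KO replicate 5. Plin5 gave -0.90 and -0.86 (limma, adjusted p = 0.00061 and 0.0012), and its differences had opposite signs in the 2 lines. Acot1 gave 1.02 (adjusted p = 0.043), and 20 of the 31 single-mouse omissions put it between 0.050 and 0.079, with differences from 0.87 to 1.03. On scan day 2 alone the Acot1 value was -0.17. For Acot2, Vnn1 and Creb3l3, which were called in total ChREBP-KO mice, the difference between the effects did not pass the test, at 0.45, 0.46 and 0.28.

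The WT littermates of the 2 lines also differed from each other. Relative to the WT littermates of the ChREBPβ line, those of the total ChREBP-KO line had 3 probes higher, against 8.12% of all probes, and 4 lower, against 8.92%. With slide as a fixed block both counts fell to 0. Without 1 mouse, the higher count ran from 0 to 4. The 3 were the Cyp4a10 probes, by 0.47, 0.44 and 0.53, and these calls were lost in 4, 10 and 7 of the 31 single-mouse omissions. The 4 were Vnn1 by -1.15, both Acot3 probes by -1.12 and -0.96, and Acot2 by -0.72, which was lost in 4 omissions. The second Acot3 probe was well above background on 6 of 8 arrays of the ChREBPβ WT littermates and 1 of 8 of the total line's. It passed the filter through the ChREBPβ line, where it is higher. Its call here is therefore no independent result, and background limits the size of its difference. For none of the 14 were the 2 WT groups without overlap, against 0.721% of all probes higher and 1.17% lower. Markers of red blood cells differed between the same groups. Of 6 measured 5 were higher in the WT littermates of the total line, with a median difference of 1.03, and their sum ran from 236689 to 342602 against 94333 to 197713, without overlap. Of 8 pancreas markers 4 were higher, with a median difference of 0.82. Their part in these results was not tested. Each genotype was tested against the WT littermates of its own line.

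Levels of Acot genes on the 2 scan days were far apart in the WT littermates of the ChREBPβ line and in total ChREBP-KO mice. In these WT littermates, the lead probe of Acot3 ran from 7.75 to 8.93 in the 4 mice scanned on day 1. It ran from 6.60 to 7.17 in the 4 scanned on day 2, without overlap. In that group Acot1 ran from 10.29 to 10.78 and from 9.42 to 9.98. In total ChREBP-KO mice Acot1 ran from 11.52 to 12.15 on day 1 and from 10.71 to 11.22 on day 2. Acot2 ran there from 7.77 to 8.81 and from 6.98 to 7.63, and neither gene overlapped between the days. Their Acot3 lead probe did overlap. The remaining groups did not share this. Acot3 in ChREBPβ-deficient mice ran from 7.35 to 8.25 on day 1 and from 7.11 to 8.47 on day 2, and Acot1 in the WT littermates of the total line from 8.99 to 10.22 and from 10.01 to 10.76. Averaged over the 4 groups, the day difference of the Acot3 lead probe was 0.52 (limma, adjusted p = 0.064), and none of the 14 passed that test, against 0.136% of all probes higher on day 1 and 0.236% lower. The ChREBPβ-deficient effect on Acot3 was -0.76 within day 1 and 0.96 within day 2. The day difference of that effect, -1.72, had an unadjusted p of 6.2e-05 in limma and an adjusted p = 0.57, so it did not pass the test.

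The total ChREBP-KO effects had larger values on day 1 for several of the genes. Within day 1 and day 2 they were 2.09 and 0.63 for Acot1, 1.30 and 0.27 for Acot2, 1.41 and 0.30 for Vnn1, and 0.70 and 0.04 for Creb3l3. Creb3l3 in the WT littermates of this line ran from 14.19 to 14.64 on day 1 and from 14.83 to 15.24 on day 2. The effects on Acot1, Acot2, Vnn1 and Creb3l3 kept their direction on both days, and so did those on the CYP4A genes and Plin5. These were 1.43 and 0.90 for the Cyp4a10 lead probe, 0.95 and 0.36 for Cyp4a14, and -0.48 and -0.73 for the Plin5 lead probe. The day difference of the Cyp4a14 effect had an unadjusted p of 0.016 in limma and an adjusted p = 0.56. On day 2 alone, 3 probes were called higher, those of Cyp4a10. On day 1 alone, neither Plin5 probe was called (limma, adjusted p = 0.10 and 0.060). These fits have fewer mice, and the share of all probes called in each is not given here. The day difference of the total ChREBP-KO effect passed the adjusted test for none of the 14 probes in limma, the lowest adjusted p being 0.35 for Acot1 and Creb3l3, and 5 of the 14 had an unadjusted p below the threshold, against 7.71% of all probes. The labels do not tie the scan day to litter, dissection or RNA extraction, and what moved with it was not tested.

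**Figure D3:**
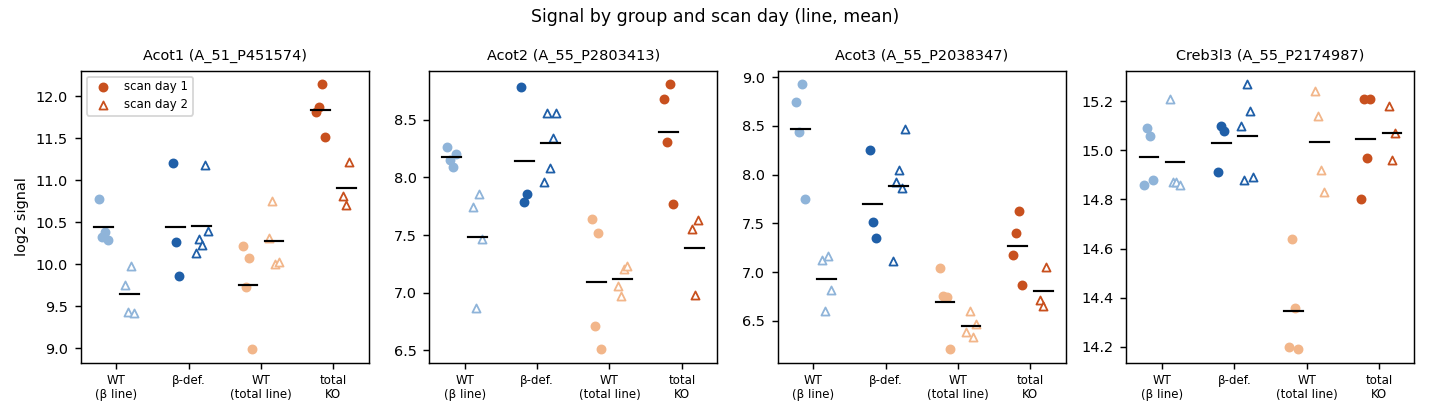
Log2 signal (y axis) of Acot1, Acot2, Acot3 and Creb3l3 by group (x axis), with mice scanned on day 1 as filled circles and on day 2 as open triangles and the mean of each as a line. Acot3 in the WT littermates of the ChREBPβ line lies at 7.75 and above on day 1 and at 7.17 and below on day 2.

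PPARα itself is encoded by Ppara, which is read by 2 probes. On A_55_P2055854, total ChREBP-KO mice ran from 13.57 to 14.14 with a median of 13.88 and WT littermates from 12.64 to 13.41 with a median of 13.28, with no overlap. The difference was 0.69 ± 0.15, 1.61-fold (limma, adjusted p = 0.00081), and that of the second probe 0.63. In ChREBPβ-deficient mice the 2 probes differed by -0.01 and -0.08. The WT littermates of the total line were in turn lower than those of the ChREBPβ line by -0.69 and -0.70, and the means on A_55_P2055854 were 13.17 and 13.86.

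Among 10 PPARα partners and regulators, 2 were higher and 3 lower in total ChREBP-KO mice, against 14.4% and 14.8% of genes by their lead probes. The higher ones were Ppara and Pparg, the latter by 0.68. The lower ones were Lpin1 by -3.25, Ppard by -1.88 and Rxrg by -0.74. Lpin1 encodes lipin 1, a phosphatidate phosphatase that also acts as a coactivator of PPARα, and Ppard and Rxrg encode the related receptors PPARδ and RXRγ. Rxra, the main RXR of liver, differed by 0.17 and did not pass the test. None of the 10 was called in ChREBPβ-deficient mice in limma, against 0% of genes higher and 0.00417% lower. An unadjusted p below the threshold was reached by 1, against 5.06% of genes.

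Of 45 other PPARα target genes, 43 were measured. In total ChREBP-KO mice 27 of them were higher, 4 lower and 12 not called, against 14.4% and 14.8% of genes higher and lower, with a median difference of 0.28. The largest rises were in Ehhadh, an enzyme of peroxisomal oxidation, by 1.14, Cyp4a31 by 1.04, and Cpt1a, which admits long-chain fatty acids to mitochondria, by 0.995. Ehhadh ran from 13.09 to 14.10 in total ChREBP-KO mice and from 11.89 to 13.15 in WT littermates, with a narrow overlap. The lower genes included Cyp8b1 by -1.92, Plin2 by -0.60 and Mgll by -0.47. Cyp8b1 encodes an enzyme of cholic acid synthesis, Plin2 a lipid droplet protein like Plin5, and Mgll a monoacylglycerol lipase. Fgf21 differed by -0.15 and Angptl4 by -0.02, and neither passed the test. In ChREBPβ-deficient mice 0 of the 43 were called in limma, against 0.00417% of genes lower, and 8 had an unadjusted p below the threshold, against 5.06% of genes. The effects of the 2 deletions differed for 13 of the 43, positive for 10 and negative for 3, against 7.09% and 8.25% of genes. In the WT littermates of the total line, 13 of the 43 were lower and 1, Cyp4a31, higher than in those of the ChREBPβ line, against 9.36% and 7.79% of genes; Cd36 was lower by -1.08 and Cpt1a by -0.90. On scan day 2 alone, with fewer mice, 6 of the 43 were higher in total ChREBP-KO mice. The share of all genes called in that fit is not given here, so the drop from 27 cannot be read as particular to these genes.

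**Figure D4:**
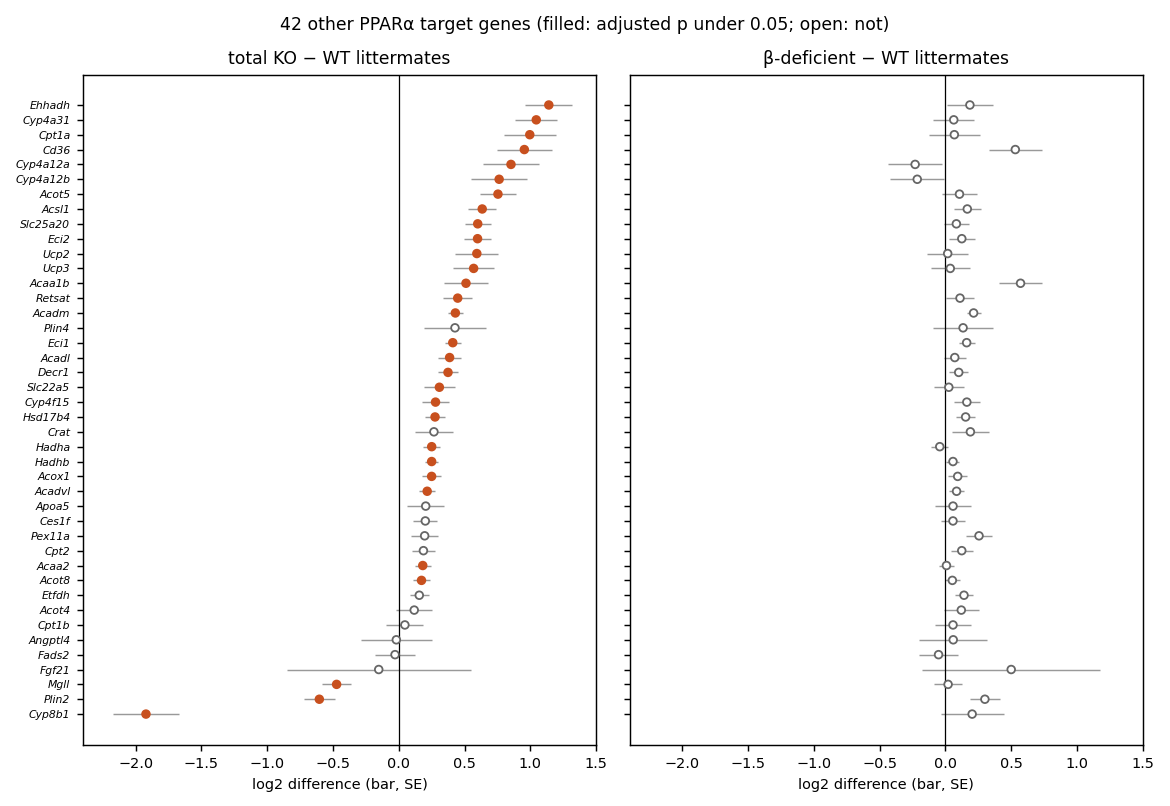
Log2 difference from WT littermates (x axis, bars are the SE) of 42 of the 43 other PPARα target genes (rows) in total ChREBP-KO mice and in ChREBPβ-deficient mice (panels), ordered by the former. Filled points passed the adjusted threshold, 30 of 42 on the left and 0 of 42 on the right, and 1 gene that is counted in the text is not shown.

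Relatives of the 10 genes were mixed. Of 23 measured, 7 were higher and 5 lower in total ChREBP-KO mice, against 14.4% and 14.8% of all genes. Several of them, among them Cyp4a12a, Acot5, Plin2 and Plin4, were also counted with the other PPARα targets above. The counts of these lists are therefore not separate results. Cyp4a12a was higher by 0.85, Acot5 by 0.75 and Pdk2 by 0.47. Pdk1 was lower by -1.89, Fabp5 by -1.67, and the droplet proteins Plin2 and Plin3 by -0.60 and -0.29. Plin1 differed by -0.08 and Plin4 by 0.43 and neither passed the test.

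Of 15 fasting genes that are not mainly PPARα targets, 2 were higher, Per1 by 1.496 and Trib1 by 0.81, and 1 lower, Got1 by -0.87, counts no larger than the 14.4% and 14.8% of all genes would give. The gluconeogenic gene Pck1 differed by 0.98 and Igfbp1 by -0.97, and neither passed the test. Of 12 genes that feeding raises, 1 was higher and 11 were lower in total ChREBP-KO mice, against 14.4% and 14.8% of all genes, among them Thrsp by -4.63, Pklr by -3.99, Pnpla3 by -3.90 and Elovl6 by -3.68. Of 13 clock genes, 6 were higher and 3 lower, against the same shares, with differences from -1.38 to 3.19, and their part in the results was not tested.

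Across mice of the same genotype, the 10 genes did not move as a single block. After group means were subtracted, 31 of the 45 pairs of lead probes correlated positively over 31 mice, and 6 pairs passed a permutation test within groups after Benjamini-Hochberg adjustment. The Acot genes went together: r was 0.77 for Acot1 and Acot2 (rho 0.79), 0.70 for Acot2 and Acot3 (rho 0.73) and 0.67 for Acot1 and Acot3 (rho 0.70), with adjusted p = 0.00023, 0.00023 and 0.00045 by permutation. They lie beside each other on chromosome 12 and have related sequences, and within scan days r was 0.66, 0.64 and 0.63. Without the 2 mice farthest from the median of the first gene, r was 0.75, 0.65 and 0.67.

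Cyp4a10 and Cyp4a14 correlated with r = 0.71 (rho 0.68, adjusted permutation p = 0.00068), and by group from 0.55 to 0.95. Pdk4 and Plin5 correlated with r = 0.69 (rho 0.59, adjusted permutation p = 0.0014), 0.54 without the 2 farthest mice. By group this was 0.75, 0.88 and 0.67, and in the WT littermates of the total line -0.13. Pdk4 and Creb3l3 correlated negatively, with r = -0.46 (rho -0.57, adjusted permutation p = 0.0039), and r was below 0 in each group, from -0.38 to -0.74. For Cyp4a10 and the Acot genes r ran from -0.19 to -0.45 and did not pass the adjusted test. By group r ran from -0.69 to -0.82 in the WT littermates of the ChREBPβ line and from -0.21 to -0.55 in ChREBPβ-deficient mice. In the WT littermates of the total line it was 0.31, -0.46 and -0.49 for Acot1, Acot2 and Acot3. In total ChREBP-KO mice it ran from 0.34 to 0.38, and these differences were not tested.

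**Figure D5:**
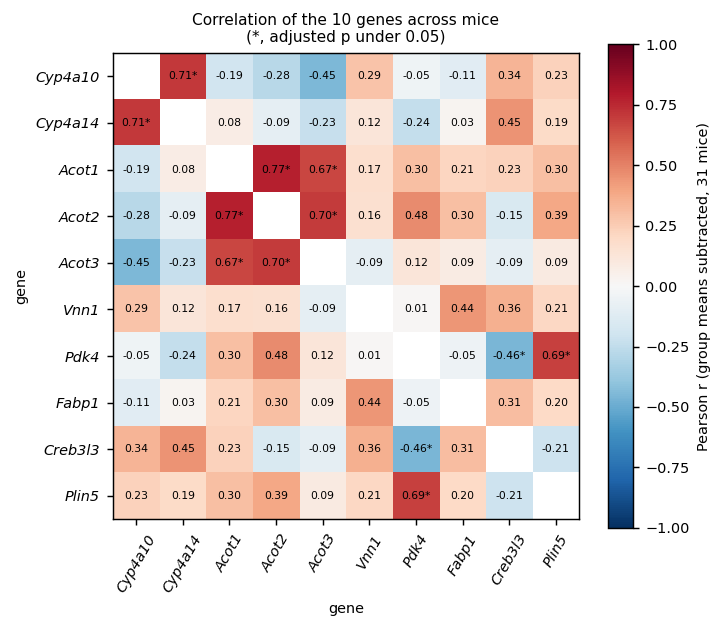
Pearson correlation of the lead probes of the 10 genes (both axes) over 31 mice after group means were subtracted, from -1 (blue) to 1 (red), with asterisks for adjusted p under 0.05. The Acot block, with r from 0.67 to 0.77, and the pairs Cyp4a10 with Cyp4a14 and Pdk4 with Plin5 stand out.

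The genes whose lead probes varied most like each of the 10 over the 31 mice, with group means subtracted and no test, were in part their neighbours. Cyp4a31 was most like Cyp4a10 (r = 0.95), Acot5 most like Acot1 (r = 0.895), and Acot4 was the second of Acot3 (r = 0.80). Mgll was most like Vnn1 (r = 0.88), Akr1a1 most like Creb3l3 (r = 0.87), Ntn1 most like Acot2 (r = 0.85), Ptpn9 most like Pdk4 (r = 0.82), Mgst1 most like Fabp1 (r = 0.79), Tor3a most like Plin5 (r = 0.76) and Alkbh4 most like Cyp4a14 (r = 0.70). For Acot3 the first was Gm23952 (r = 0.85).

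Promoters of 7 of the 10 genes were given, 10 windows in all, from RefSeq on build GRCm38.p6. In the 250 bases before each start, the DR1 motif AGGTCANAGGTCA was sought on both strands. With up to 2 mismatches it was found in 2 of the 10 windows, those of Fabp1 and of a start of Creb3l3, and in 3.24% of all 32851 promoters. With at most 1 mismatch only the Fabp1 window held it, as did 0.484% of all promoters. The windows of Fabp1 and Acot1, which had the smallest and the largest difference in total ChREBP-KO mice, are shown, with the match in capitals. In Fabp1, at chr6:71199629-71199878 on the plus strand, the match lies 67 to 55 bases before the start on the minus strand.
Fabp1 promoter: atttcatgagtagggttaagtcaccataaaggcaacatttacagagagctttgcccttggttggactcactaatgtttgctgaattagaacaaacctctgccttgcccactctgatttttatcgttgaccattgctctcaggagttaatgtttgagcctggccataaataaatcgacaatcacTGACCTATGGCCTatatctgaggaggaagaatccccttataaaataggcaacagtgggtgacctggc
In Acot1, at chr12:84009252-84009501 on the plus strand, no match with up to 2 mismatches lies in this window.
Acot1 promoter: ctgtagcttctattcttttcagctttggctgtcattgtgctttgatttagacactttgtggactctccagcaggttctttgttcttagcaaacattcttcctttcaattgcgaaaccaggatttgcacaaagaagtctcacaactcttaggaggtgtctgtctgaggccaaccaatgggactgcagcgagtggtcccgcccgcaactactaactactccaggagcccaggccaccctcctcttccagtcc
A match of letters does not show that PPARα binds, and its lack says nothing of elements outside the window.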

How the data were processed

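Liver RNA of 31 mice was hybridized to one-color Agilent SurePrint G3 Mouse GE v2 arrays. The authors deposited scanner files of Agilent Feature Extraction 10.10.1.1, with the median intensity and flags of each spot, and a filtered, quantile normalized table of log2 values with 1 value per probe. Groups come from the sample titles.

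The authors' Methods were followed. Spots had to be found, positive and clearly brighter than background on 26 arrays, or on 6 of a single group. Their log2 median intensities were quantile normalized, and repeated probes were summarized by the median. The result differed from the deposited log2 values by -0.03 to 0.03 (1st to 99th percentile), and no kept spot was saturated. A model of the 4 groups was fitted in limma 3.58.1 (R 4.3.3), with Benjamini-Hochberg adjustment over 36059 probes and a threshold of 0.05. SE is the standard error of the fit. Correlations were tested with 100000 permutations of mice within groups (Python 3.11.15, SciPy 1.17.1). The programs were tested on simulated data. The 7 or 8 arrays per group limit the precision.

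The genes and lists were chosen with earlier results of these data known. The text names the 14 probes, Mlxipl, Ppara, up to 4 called genes with the largest difference per list and comparison, and the genes most similar in pattern. Rxra, Fgf21, Angptl4, Plin1, Plin3, Plin4 and Pck1 were named after their values were seen. Some genes of the lists are counted but not reported here by name. Alternatives were other signals, scalings, background corrections and filters, the deposited values, blocks for slide, scan day or replicate, each scan day alone, other fits and thresholds, an exact Mann-Whitney test, and omission of each mouse. The fits of scan day by genotype and the correlations within scan days were added after seeing the data.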

Additional observations from a re-analysis of the deposited data

Results flagged for a closer look

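The 2 deletions differed in their effect on 7 of the 14 probes, by a test of the difference in limma, 5 positive against 7.02% of all probes and 2 negative against 8.08%. The differences of the log2 effects were 1.12, 1.202 and 1.19 for the Cyp4a10 probes, 0.55 for Cyp4a14, 1.02 for Acot1, and -0.90 and -0.86 for the Plin5 probes. The Acot1 call was lost in 20 of the 31 single-mouse omissions, and its value was -0.17 on scan day 2 alone.

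In 4 of 56 groups of mice, 1 mouse stood apart from the rest of its group by Dixon's criterion, which chance gives in about 1 in 20 groups. For Vnn1 this was the lowest mouse in both WT groups, each replicate 2 of its line. In the ChREBPβ line it was at 8.95 and the next at 10.01, a gap of 0.59 of the range, and in the total line at 7.84 and the next at 8.88, a gap of 0.53. For Plin5 it was total ChREBP-KO replicate 4, the highest on A_55_P2104259 at 12.83 with the next at 12.51, a gap of 0.60. For Acot3 it was total ChREBP-KO replicate 5 on A_52_P1156957, at 5.23 with the next at 4.71, a gap of 0.64.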

How the results depend on the processing

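Of 908 values of the 14 probes under 17 other settings, 821 kept their direction and their side of the threshold. A fit on 1 scan day has fewer mice, and the share of all probes called in it is not given here. For the changes below the cause was not tested. For total ChREBP-KO mice, 8 probes were higher in the report, but 3 on scan day 2 alone and 5 in the exact Mann-Whitney test. The 2 lower became 0 on scan day 1 alone and 1 with a fold change of at least 1.5. Of all 36059 probes, the exact Mann-Whitney test called 8006 in either direction in this comparison, and limma 5229 higher and 5248 lower. Of the other PPARα targets, the 27 higher became 6 on scan day 2 alone and 11 with that fold, and the 4 lower became 2 with slide as a fixed block, 1 on scan day 1 alone and 2 with that fold. For the difference of the 2 effects, the 5 positive became 3 with a filter on all 31 arrays and 3 on scan day 2 alone, and the 2 negative became 0 on scan day 1 alone. Between the WT groups, the 3 higher became 0 with slide as a fixed block, on either scan day alone, in the exact Mann-Whitney test and with that fold, and 1 with these 2 groups fitted alone. The 4 lower became 0 with slide as a fixed block, 1 on scan day 2 alone and 2 in the exact Mann-Whitney test. Between the WT groups that test called 3723 of all probes in either direction, and limma 2929 higher and 3215 lower. Without 1 mouse, the counts ran from 7 to 8 higher and 2 to 2 lower for total ChREBP-KO mice, 0 to 0 for ChREBPβ-deficient mice, 3 to 5 positive and 2 to 2 negative for the difference of effects, 0 to 4 higher and 3 to 5 lower between WT groups, and 24 to 28 higher and 3 to 4 lower for the other targets.

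Differences that changed sign were mostly small. On scan day 1 alone, total ChREBP-KO mice differed by 0.073 in Pdk4 and 0.026 in Fabp1, and ChREBPβ-deficient mice by -0.76 in Acot3 (A_55_P2038347), 0.11 in Cyp4a10 (A_55_P2092030) and -0.033 in Acot2. The difference of effects was 0.0057 for Fabp1, and the WT groups differed by -0.11 in Cyp4a14. On scan day 2 alone, the difference of effects was -0.28 for Vnn1, -0.17 for Acot1, -0.54 for Acot2, -0.068 for Creb3l3, and -0.67 and -0.61 for the Acot3 probes. The WT groups differed by 0.64 in Acot1, 0.052 in Fabp1 and 0.075 in Creb3l3, and ChREBPβ-deficient mice by 0.73 in Acot3 (A_52_P1156957), -0.090 in Cyp4a10 (A_52_P257774) and -0.18 in Cyp4a10 (A_52_P6588). With the processed signal at the 75th percentile, the values were 0.021 for Fabp1 between WT groups, and for ChREBPβ-deficient mice 0.31 for Acot3 (A_52_P1156957), -0.011 for Cyp4a10 (A_52_P257774) and -0.00052 for Creb3l3. With the median signal at that percentile they were 0.037 for Fabp1 between WT groups and -0.0026 for Cyp4a10 (A_52_P257774) in ChREBPβ-deficient mice, and the correlations of Fabp1 with Cyp4a10, Acot2 and Acot3 were 0.259, -0.109 and -0.0143. With slide as a fixed block, Fabp1 was at 0.0037 between WT groups, and the Cyp4a10 probes A_52_P257774 and A_52_P6588 were at -0.025 and -0.067 in ChREBPβ-deficient mice. A_52_P6588 was at -0.025 with scan day as a fixed block, and A_55_P2092030 at 0.0014 with array weights. Omitting single mice gave ranges across 0 for Pdk4 in total ChREBP-KO mice (-0.28 to 0.12), for Acot1 (-0.13 to 0.12), Fabp1 (-0.044 to 0.0093) and Cyp4a14 (-0.039 to 0.14) between WT groups, and in ChREBPβ-deficient mice for the Acot3 probes (-0.23 to 0.11 and -0.037 to 0.30) and the Cyp4a10 probes (-0.0095 to 0.13, -0.065 to 0.12 and -0.098 to 0.028).

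At r over 0.1, same-numbered mice correlated in 2 of 7 pairs of the total line and 6 of 8 of the ChREBPβ line. In 1 of 7 and 4 of 8 the same number was the best match. The highest r of a same-numbered pair was 0.24 and 0.53. For the ChREBPβ line these values do not settle whether the numbers pair mice, and the main fit did not use them. With the replicate number as a block, 8 probes were higher and 2 lower in total ChREBP-KO mice, 0 in ChREBPβ-deficient mice, 4 positive and 2 negative for the difference of effects, and 3 higher and 4 lower between WT groups. For the WT groups the block joined same-numbered mice of the 2 lines. The labels give no link between those mice, so this setting is no check on that comparison. A signal not well above background, as for the second Acot3 probe, limits what can be seen of a low gene.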
